A study of Mus musculus with 8 samples.

Results

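Lin28a and 6 genes linked to it in stem cell growth, Lin28b, Trim71, Igf2bp1, Hmga2, Mycn and Myc, were followed in single-cell RNA-seq of mouse embryonic stem (mES) cells. The 7 genes were found by symbol among the 54146 gene rows of both count tables, and all 7 had counts in both. They were chosen with values of these libraries known, since Lin28a stands among the genes with the lowest ratio of treated to untreated cells, so the ratio of Lin28a is given here as a description. The study asked whether blocking ribosomal RNA synthesis moves mES cells towards a state that resembles the 2-cell embryo, in which Zscan4 genes are switched on.

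The cells are E14 wild-type mES cells, a line derived from the inner cell mass. They were kept for 2 days in LIF/2i medium on gelatin-coated plates together with mouse embryonic fibroblast feeders, in both conditions. The control cells were untreated, and the other cells received CX-5461, an inhibitor of RNA polymerase I. The dose and duration of CX-5461 for these libraries are not given in the sources used here. The labels list 4 samples per condition, but all barcodes of a condition stand in 1 table under running numbers, with no sample of origin, so each condition is 1 library. No test was therefore possible, and the difference between conditions cannot be told apart from a difference between the 2 libraries. Barcodes shared between samples could not be counted either, because the tables hold running numbers in place of barcode sequences.

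LIN28A is an RNA-binding protein that blocks the maturation of let-7 microRNAs, and let-7 in turn represses messenger RNAs that carry its seed site in the 3′ untranslated region (3′ UTR). LIN28B is its paralog, TRIM71 is an RNA-binding ubiquitin ligase, IGF2BP1 stabilises growth-related messenger RNAs, HMGA2 is an architectural chromatin protein, and MYCN and MYC are transcription factors that drive growth. In mES cells LIN28A, TRIM71 and MYCN are part of the undifferentiated state, in which mature let-7 is scarce, and let-7 accumulates as cells differentiate.

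The let-7 seed and its sites are shown first because they are the sequence feature that 5 of the 7 genes share. The genes were not picked by a search for sites, but they were grouped for their link to Lin28a. The matches, and the comparison with genes of like length, are therefore a description and no independent test. In the RefSeq table of mature mouse microRNAs (GRCm38.p6), 11 names carry the seed GAGGUAG at bases 2 to 8, 9 of them let-7 microRNAs, the others being miR-98-5p and miR-1961. In the examples below, the seed stands in capitals.
let-7a-5p: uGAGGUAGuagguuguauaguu
let-7d-5p: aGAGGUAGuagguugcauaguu
let-7e-5p: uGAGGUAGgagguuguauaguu
let-7g-5p: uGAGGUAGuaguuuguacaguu

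The complement of the seed, CTACCTC, was searched on the sense strand of the longest annotated 3′ UTR of each gene (GENCODE vM21, GRCm38). Lin28a held 2 sites in 2775 bases, Lin28b 4 in 4445, Trim71 4 in 5512, Igf2bp1 4 in 6337 and Hmga2 4 in 3014. Mycn, with 913 bases, and Myc, with 466 bases, held none. Among 21021 protein-coding genes with an annotated 3′ UTR, 9.02% held at least 1 site. Long UTRs hold more sites: among genes whose 3′ UTR was within 20% of the length of that of Lin28a, 14.4% held a site and 2.06% held as many as Lin28a. For Hmga2, 0.0891% of the genes of like length held 4 or more sites. A match is a run of letters in the annotation, and binding was not measured. A site is shown for each of the 5 genes because it is what they share: both sites of Lin28a, the first 2 of Trim71 and the first site each of Lin28b, Igf2bp1 and Hmga2 are printed 5′ to 3′ on the gene's strand, with the site in capitals. All lie on the minus strand.
Lin28a, chr4:134005182-134005204: ctgttgaaCTACCTCatttttgc
Lin28a, chr4:134004544-134004566: ccacaaacCTACCTCactgtgtt
Trim71, chr9:114512465-114512487: cctaagtcCTACCTCagcttaaa
Trim71, chr9:114512369-114512391: atttctatCTACCTCaactcttt
Lin28b, chr10:45381015-45381037: cgggaagtCTACCTCatgcaagc
Igf2bp1, chr11:95961771-95961793: gaagtaaaCTACCTCaaggtgtg
Hmga2, chr10:120364217-120364239: ttcaatttCTACCTCagcatcag

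The measurement was of unique molecular identifiers (UMIs), each standing for 1 captured RNA molecule. The control library held 3838 barcodes and 49610287 UMIs, and the CX-5461 library held 4922 barcodes and 69841836 UMIs. Once barcodes under 500 UMIs or with more than 0.2 of their UMIs from mitochondrial genes were dropped, 3767 control and 4697 CX-5461 cells were kept. Clustering without the 7 genes gave 2362 control and 4441 CX-5461 ES-like cells, with medians of 15850 and 14114 UMIs, and 216 and 162 fibroblast-like cells, taken as feeders. Markers went with these names: the 8 ES cell markers together held 7422 and 7849 UMIs per 1000000 (CPM) in ES-like cells and 369 and 230 in fibroblast-like cells, while the 8 fibroblast markers held 2156 and 4407 in fibroblast-like cells. Dppa5a alone gave 4938 and 5864 CPM of the ES marker sums in ES-like cells. Single ES markers moved both ways there, as Zfp42 from 838 to 440 CPM and Sox2 from 87.8 to 134.9 CPM. A class of 12 and 90 cells was 2C-like by Zscan4 and related genes, among them Zscan4d. A further 1177 control cells stayed unnamed, of which 1172 formed a cluster with a median of 2392 UMIs and 11.9% mitochondrial UMIs. ES-like cells of CX-5461 had a higher median mitochondrial share, 4.13% against 1.88%. Every ES-like cluster was made of 1 library, except for 1 control cell in a CX-5461 cluster.

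Lin28a was the gene with the widest difference of the 7. Control ES-like cells held 900 Lin28a UMIs, or 21.8 CPM (95% interval 20.4 to 23.3). After CX-5461 the sum was 129 UMIs, or 2.03 CPM (1.69 to 2.41). The level was 10.7-fold lower after CX-5461 (8.93 to 13.0), and the intervals of both libraries lie far apart. Intervals here are exact and cover counting error only, not differences between cultures. On the log2 scale the ratio of CX-5461 to control was −3.43.

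The median gene did not stand at a ratio of 1. Over the 11680 genes with at least 200 UMIs in both libraries together, the median log2 ratio in ES-like cells was 0.37, so ratios were also taken relative to this median. On that scale Lin28a stood at −3.80, the 7th lowest of the 11680 genes. A gene was called when its ratio lay at least 1.5-fold from the median. By this call 17.2% of all tested genes were lower and 21.3% higher. Of the 7 genes, 6 reached 200 UMIs, of which 5 were called lower and 0 higher; the members were chosen with these ratios known, so nothing is read from that count. Lin28b, with 37 and 52 UMIs, was below the minimum. Without taking ratios relative to the median, 3 of the 6 were lower, Lin28a, Trim71 and Myc, beside 7.34% of all genes.

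**Figure D1:**
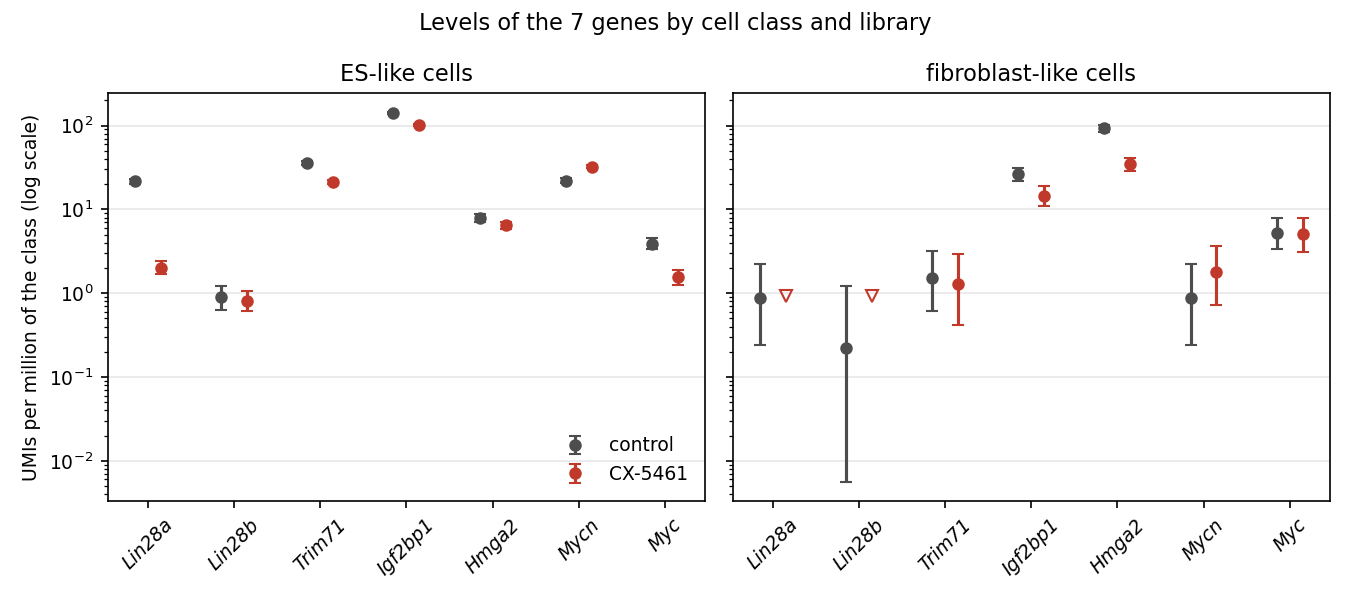
Level of each of the 7 genes in ES-like cells (left) and fibroblast-like cells (right), in UMIs per 1000000 on a log axis; points are sums over all cells of a library, bars are exact 95% Poisson intervals, and open triangles mark the upper limit where a library had 0 UMIs. Lin28a in ES-like cells drops from 21.8 in control to 2.03 in CX-5461, while Hmga2 is the gene with the highest level in fibroblast-like cells.

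The position of Lin28a is chr4:134003330-134018841 on the minus strand (GRCm38), and the annotated transcript Gm13061 overlaps it on the opposite strand. The authors deposited a column of counts that could not be given to a single gene. It held 0 counts for Lin28a in both libraries, as it did for the other 6 genes, so adding it changes none of their levels. Reads that entered neither the counts nor this column cannot be seen here. Trim71 overlaps C130032M10Rik, Igf2bp1 overlaps Mir3063 and Gm29202, and Hmga2 overlaps 1700006J14Rik, 9230105E05Rik and Mir763. Whether the counting used the strand is not stated in the sources used here.

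A few strongly expressing cells did not carry the Lin28a sum. In control, 480 ES-like cells held 1 Lin28a UMI, 139 held 2, 36 held 3 and 8 held 4 or more, with at most 5 in any cell. The 24 cells with most, 1% of the class, held 82 of the 900 UMIs, or 9.11%. In CX-5461, 110 cells held 1 UMI, 8 held 2 and 1 held 3, out of 4441. At the deposited depth, a Lin28a UMI was present in 28.1% of ES-like cells in control (26.3 to 29.9) and in 2.68% after CX-5461 (2.22 to 3.20).

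At equal depth the libraries stayed apart. Each cell was thinned at random to 3100 UMIs; 18 ES-like cells of control and 21 of CX-5461 were shallower and dropped out. A Lin28a UMI then remained in 136 of 2344 control cells, or 5.80% (4.89 to 6.83), and in 24 of 4420 CX-5461 cells, or 0.543% (0.348 to 0.807). The variance of Lin28a UMIs over cells divided by their mean was 0.998 in control and 0.995 in CX-5461, near the value of 1 that counting at 1 common level gives. For comparison, the ratio was 1.12 for Pou5f1 in control and 1.30 in CX-5461. At about 0.06 Lin28a UMIs per thinned control cell, variation of level between cells would be hard to see.

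The difference held at each depth of the cell. In cells from 8000 to under 12000 UMIs, Lin28a stood at 17.6 CPM in control and 1.52 in CX-5461, an 11.6-fold difference (6.38 to 22.7). In cells from 12000 to under 16000 UMIs the values were 20.6 and 1.95 CPM, 10.5-fold apart (7.56 to 15.01). In cells of 22000 UMIs or more they were 25.9 and 2.90 CPM, 8.93-fold apart (5.90 to 14.1). Below 8000 UMIs only 4 and 3 Lin28a UMIs were counted. In both libraries the level was lowest in the shallowest and highest in the deepest group, and the intervals of the fold difference overlapped between all groups.

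**Figure D2:**
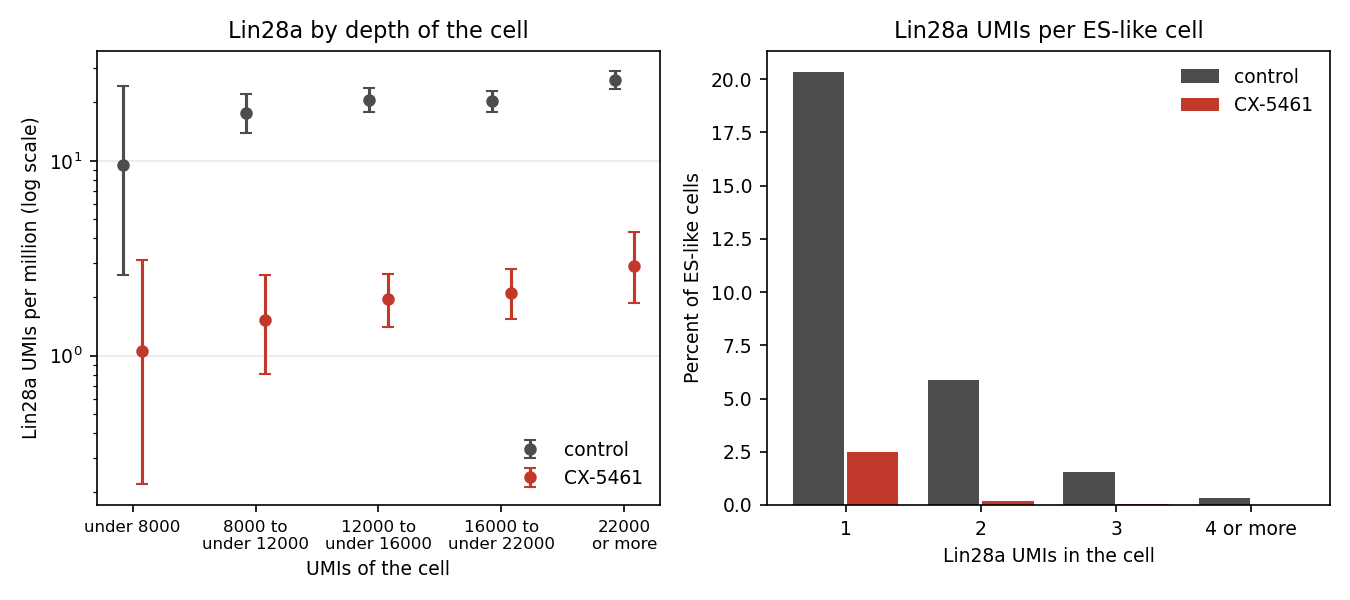
Left, Lin28a level in ES-like cells grouped by the UMIs of the cell, in UMIs per 1000000 on a log axis, with exact 95% Poisson intervals. Right, percent of ES-like cells of each library with 1, 2, 3, or 4 or more Lin28a UMIs at the deposited depth; the control points lie above those of CX-5461 at each depth and each number of UMIs, with overlapping intervals only below 8000 UMIs.

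Lin28a was also read by ES-like cluster. Lin28a stood at 20.9 CPM (19.1 to 22.7) in control cluster 0, led by histone genes. It stood at 23.2 CPM (20.9 to 25.7) in control cluster 3, whose leading genes begin with Lin28a itself. In CX-5461 it stood at 2.46 CPM in cluster 5, 1.42 in cluster 7 and 1.45 in cluster 8, and no UMI was counted in the 108 cells of cluster 9, which allows up to 2.85 CPM. Every control ES-like cluster thus lay above every CX-5461 ES-like cluster, with no overlap of intervals. As these clusters are each of 1 library apart from 1 control cell, this restates the gap between libraries. The unnamed control cluster of shallow cells, with its high mitochondrial share, stood at 12.6 CPM (9.17 to 17.0); with all cells other than feeders, the relative log2 ratio of Lin28a was −3.73. CX-5461 cluster 8 had a median of 5974 UMIs and 15.6% mitochondrial UMIs, and its interval of 0.470 to 3.38 CPM held the values of clusters 5 and 7.

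The 2C-like state was set against Lin28a among cells with at least 5000 UMIs. In control, Lin28a stood at 21.9 CPM in the 2385 cells without a UMI of the 20 2C markers. It stood at 11.9 CPM (6.15 to 20.8) in the 58 cells with 1 to 4 such UMIs and at 12.7 CPM (2.61 to 37.0) in the 13 cells with 5 or more, which rest on 12 and 3 Lin28a UMIs. In CX-5461 the values were 2.10, 1.59 and 2.02 CPM, with overlapping intervals. The gap between the libraries was thus present in cells without any 2C marker UMI.

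Feeders gave a measure of ES cell RNA found outside ES-like cells, whether free in the suspension or from doublets. Pou5f1, a pluripotency factor that fibroblasts lack, stood in fibroblast-like cells at 5.52% of its ES-like level in control and at 2.87% in CX-5461. Lin28a stood in control fibroblast-like cells at 0.879 CPM from 4 UMIs, 4.03% of its ES-like level (1.10 to 10.4), and Trim71 and Mycn at 4.30% and 3.99%, all with intervals that hold the value of Pou5f1. No Lin28a UMI was counted in the 162 CX-5461 feeders, which allows up to 0.940 CPM. The Lin28a level of CX-5461 ES-like cells, 2.03 CPM with a lower bound of 1.69, lay above that limit. After thinning to 3100 UMIs, 0 of 162 CX-5461 feeders had a Lin28a UMI, which allows up to 1.85%, a limit above the 0.543% of CX-5461 ES-like cells. In control, 1 of 206 thinned feeders had one, 0.485% (0.0123 to 2.67), and 0 with another seed. As a share of thinned cells, the feeders were thus too few to set a background for the CX-5461 ES-like cells. The medians before thinning were 20619 UMIs in control feeders, 23609 in CX-5461 feeders and 14114 in CX-5461 ES-like cells.

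Of the let-7 genes themselves, 11 annotated let-7 loci had 0 UMIs in ES-like cells of both libraries. This assay captures polyadenylated RNA and does not capture mature microRNAs, so the level of let-7 was not measured.

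Lin28b, the paralog with 4 let-7 sites (chr10:45376620-45486395), was scarcely detected. It stood at 0.896 CPM (0.631 to 1.23) in control ES-like cells and at 0.817 CPM (0.611 to 1.07) in CX-5461, and these intervals overlap almost entirely. The ratio of CX-5461 to control was 0.913 (0.587 to 1.43), with a lower bound above the upper bound of 0.112 for Lin28a.

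Trim71 (chr9:114507133-114564369) was the next of the RNA-binding genes. It stood at 35.8 CPM (34.0 to 37.7) in control and 21.4 CPM (20.3 to 22.6) in CX-5461, 1.67-fold lower (1.55 to 1.80). Relative to the median gene its log2 ratio was −1.11. The thinned share of ES-like cells with a UMI was 10.1% (8.92 to 11.4) against 6.52% (5.81 to 7.28). Unlike Lin28a, its level was higher in shallow control cells, 59.4 CPM below 8000 UMIs against 32.2 CPM at 22000 or more, and it was lower in CX-5461 in each depth group.

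Igf2bp1 (chr11:95957163-96005940) had the highest level of the 7 genes. In ES-like cells of control the sum was 5854 UMIs, 141.7 CPM (138.1 to 145.4), while after CX-5461 it was 6447 UMIs, 101.4 CPM (98.9 to 103.9). The level was 1.40-fold lower (1.35 to 1.45), and the log2 ratio was −0.86 relative to the median. At equal depth, an Igf2bp1 UMI was found in 36.9% of cells in control (34.9 to 38.8) and in 25.9% after CX-5461 (24.6 to 27.2). In fibroblast-like cells it stood at 18.4% of its ES-like level in control and 14.3% in CX-5461, with intervals above those of Pou5f1. Feeders thus held more Igf2bp1 than the share of Pou5f1 would give. Their levels were 26.1 CPM (21.7 to 31.3) in control and 14.5 CPM (11.001 to 18.8) in CX-5461, a relative log2 ratio of −1.01. Thinned to 3100 UMIs, the feeder levels were 14.1 and 13.9 CPM from 9 and 7 UMIs, a relative log2 ratio of −0.13. With another seed they were 25.1 and 23.9 CPM. Thinned to 6000 UMIs, they were 26.4 and 12.8 CPM from 31 and 12 UMIs. The UMIs left at equal depth were thus too few to settle this difference.

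Hmga2 (chr10:120361275-120476469) had a higher level in feeders than in ES-like cells in both libraries. Fibroblast-like cells held 92.5 CPM (83.9 to 101.8) in control and 34.4 CPM (28.8 to 40.7) in CX-5461, 2.69-fold lower (2.21 to 3.29). It was the only one of the 7 genes to reach 200 UMIs in fibroblast-like cells, and its log2 ratio relative to the median of 3918 genes was −1.58, beside 15.4% of tested genes called lower and 14.0% called higher in these cells. At equal depth, 40 of 206 control feeders, 19.4% (14.2 to 25.5), and 16 of 162 CX-5461 feeders, 9.88% (5.75 to 15.5), had a Hmga2 UMI.

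The make-up of the feeders moved with the condition. The 8 fibroblast markers summed to 2156 CPM in control and 4407 CPM in CX-5461. The 8 macrophage markers summed to 240.6 CPM in control, with all 8 detected, and to 17.3 CPM in CX-5461, with 5 detected and C1qa, C1qb and Ptprc at 0. Lyz2, a lysozyme of macrophages, stood at 110.7 CPM in control and 1.53 in CX-5461. Leaving out the 52 control and 48 CX-5461 feeders with a macrophage marker UMI, a filter chosen after the data were seen, gave Hmga2 a log2 ratio relative to the median of −1.77 in place of −1.58. In CX-5461 feeders the marker Cd68 gave 12.5 of the 17.3 CPM, and CX-5461 ES-like cells held it at 27.0 CPM. The filter may therefore have removed different kinds of cells from the 2 libraries. The part of the higher fibroblast marker level in the Hmga2 difference was not tested.

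In ES-like cells Hmga2 was low, at 7.92 CPM (7.08 to 8.82) in control and 6.45 CPM (5.84 to 7.10) in CX-5461, so the 2 intervals just overlap. The ratio was 0.814 (0.702 to 0.944). Relative to the median the log2 ratio was −0.67, just past the call, whereas on class totals it was not called. Nor was it called at equal depth, where the relative log2 ratio was −0.42 and a Hmga2 UMI was found in 2.01% (1.48 to 2.66) of control and 1.92% (1.54 to 2.37) of CX-5461 cells. These levels were 8.56% of the fibroblast-like level in control and 18.7% in CX-5461. For Col1a1 and Col1a2, the collagen I genes of fibroblasts, the same shares were 0.258% and 0.133% in control and 0.703% and 0.0592% in CX-5461. The Hmga2 counts in ES-like cells were thus above what feeder RNA at the share of either collagen would give. Taken over all kept cells, Hmga2 went from 15.7 to 8.03 CPM, and fibroblast-like cells gave 421 of the 777 control UMIs and 135 of the 552 CX-5461 UMIs.

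The MYC family genes differed from each other. Myc (chr15:61985391-61990374) was low, with 162 UMIs or 3.92 CPM (3.34 to 4.57) in control and 99 UMIs or 1.56 CPM (1.26 to 1.89) in CX-5461. This was 2.52-fold lower (1.95 to 3.27), or −1.71 on the log2 scale relative to the median. At equal depth, 1.19% (0.795 to 1.72) and 0.385% (0.224 to 0.615) of ES-like cells had a Myc UMI. In fibroblast-like cells Myc stood at 5.27 CPM (3.38 to 7.85) in control and 5.10 CPM (3.11 to 7.87) in CX-5461, from 24 and 20 UMIs. On class totals the ratio was 0.966 (0.506 to 1.83) in these cells and 0.397 (0.306 to 0.513) in ES-like cells, so the intervals just overlap. Relative to the median of each class, the log2 intervals were −1.14 to 0.71 and −2.08 to −1.34, which do not overlap. The difference between the classes was not tested.

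Mycn (chr12:12936093-12941914) was the only one of the 6 tested genes with a higher level after CX-5461. It stood at 22.0 CPM (20.6 to 23.5) in control and 32.2 CPM (30.8 to 33.6) in CX-5461, a ratio of 1.46 (1.35 to 1.58). The median gene had moved in the same direction, so the log2 ratio relative to it was 0.17, and Mycn was not called by either scale. After thinning to 3100 UMIs, the relative value was −0.02, from 188 and 427 UMIs, so its direction relative to the median flips with that choice. At that depth Mycn stood at 25.9 CPM in control and 31.2 CPM in CX-5461, and at 6000 UMIs at 22.1 and 31.1 CPM. The shares of cells with a UMI at 3100 UMIs, 7.55% (6.51 to 8.70) in control and 8.96% (8.13 to 9.84) in CX-5461, overlap. At 1500 UMIs the shares overlap too, at 3.82% (3.09 to 4.68) and 4.44% (3.85 to 5.09). At 6000 UMIs they do not, at 12.0% (10.7 to 13.4) and 16.4% (15.3 to 17.6). In control, Mycn (22.0 CPM) and Lin28a (21.8 CPM) stood at the same level, and in CX-5461 Mycn was above Lin28a in each of clusters 5, 7, 8 and 9.

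Ordered by CPM in control ES-like cells, Igf2bp1 came first, then Trim71, Mycn, Lin28a, Hmga2, Myc and Lin28b. Only the neighbours Mycn and Lin28a had overlapping intervals. In CX-5461 the order was Igf2bp1, Mycn, Trim71, Hmga2, Lin28a, Myc and Lin28b, and Lin28a and Myc overlapped. These are counts of 3′ ends, of which each molecule gives 1 whatever its length.

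The share of cells with a UMI of several of these genes was small. After thinning, 48.3% of control ES-like cells had a UMI of none of the 7 genes, 40.8% of 1, 9.94% of 2 and 1.02% of 3 or more. In CX-5461 the shares were 61.9%, 32.0%, 5.81% and 0.271%. Control cells with a Lin28a UMI had a Trim71 UMI in 10.3% of cases (5.74 to 16.7) and cells without in 10.1%, and for Igf2bp1 the shares were 36.8% (28.7 to 45.5) and 36.9%. In CX-5461 only 24 cells had a Lin28a UMI after thinning. Of these, 12 had an Igf2bp1 UMI, 50% (29.1 to 70.9), against 25.8% (24.5 to 27.1) of the cells without Lin28a. The intervals thus overlapped in control but not in CX-5461. This contrast rests on 12 cells after 1 random thinning, was picked out of several, and was not repeated with another seed. Cells of 1 library are not replicates. Trim71 was found in 2 of the 24 cells, 8.33% (1.03 to 27.0), against 6.51%. For Mycn the control shares were 2.94% (0.807 to 7.36) with a Lin28a UMI, from 4 cells, and 7.84% (6.75 to 9.04) without, and in CX-5461 they were 12.5% (2.66 to 32.4), from 3 cells, and 8.94% (8.11 to 9.82). The order of the Mycn shares was thus opposite in the 2 libraries, with overlapping intervals in both.

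In CX-5461, cluster 9 stood apart from the other ES-like clusters for 3 of the 7 genes, Igf2bp1, Trim71 and Mycn. Its 108 cells, led by Rgs14 and Krt15, carried the ES-like name by the summed ES markers, but Nanog stood at 10.0 CPM there against 216 to 239 CPM in the other CX-5461 ES-like clusters. Igf2bp1 was at 19.3 CPM (12.5 to 28.5) against 92.5 to 108.8 in clusters 5, 7 and 8. Trim71 was at 5.41 CPM (2.18 to 11.1) against 17.1 to 29.8, and Mycn at 6.18 CPM (2.67 to 12.2) against 27.8 to 35.5. For Lin28a, Lin28b, Hmga2 and Myc, with 0, 0, 2 and 1 UMIs in cluster 9, the intervals overlapped those of at least 1 other ES-like cluster. Pou5f1 was less far down, at 494 CPM against 579 to 851. The 7 genes had no part in the clustering, but Nanog did, and the cluster's own genes are no test.

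CX-5461 ES-like cells were also grouped by Krt15, a keratin gene, alone. The values of Igf2bp1, Trim71, Mycn, Hmga2 and Lin28b fell in order, but of these only Igf2bp1 had intervals apart between all groups. Igf2bp1 stood at 105.3 CPM (102.6 to 108.1) in the 3748 cells without a Krt15 UMI, at 92.0 (84.6 to 99.96) in the 429 cells with 1 and at 56.9 (49.3 to 65.3) in the 264 cells with 2 or more. Mycn stood at 34.0 (32.5 to 35.6), 24.8 (21.0 to 29.0) and 17.7 CPM (13.6 to 22.6) in these cells. Trim71 stood at 22.2 (20.9 to 23.5), 18.4 (15.1 to 22.1) and 14.6 CPM (10.9 to 19.1). For both genes the first and last groups lay apart, and the middle group overlapped the last. Hmga2 stood at 6.84 (6.16 to 7.57), 4.59 (3.05 to 6.64) and 3.64 CPM (1.94 to 6.23). Lin28b stood at 0.871 (0.640 to 1.16), 0.656 (0.179 to 1.68) and 0.280 CPM (0.00710 to 1.56) from 47, 4 and 1 UMIs. For both genes the intervals of all groups overlapped. Myc stood at 1.59, 1.64 and 0.841 CPM. Pou5f1 fell in the same order, at 774, 626 and 521 CPM. Lin28a stood at 2.06 CPM (1.69 to 2.48) without Krt15 and 2.79 CPM (1.62 to 4.46) with 1 Krt15 UMI, with overlapping intervals. With 2 or more Krt15 UMIs it stood at 0.280 CPM (0.00710 to 1.56), from 1 UMI, an interval below those of both other groups. The median depth of the 3 groups was 14259, 13790 and 13216 UMIs, so depth differed little. No control ES-like cell had a Krt15 UMI.

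**Figure D3:**
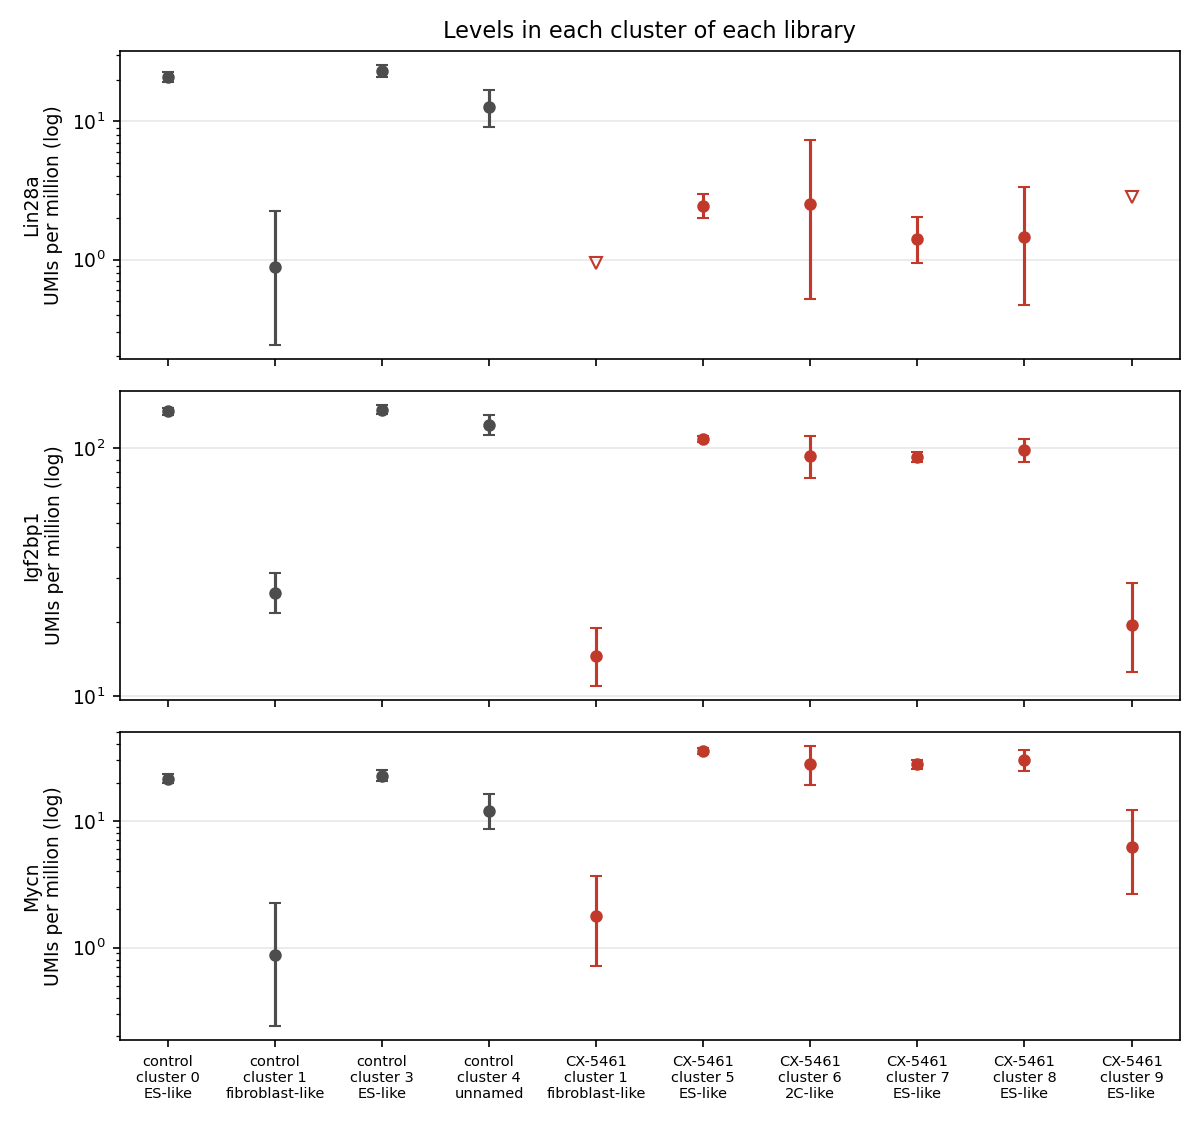
Lin28a, Igf2bp1 and Mycn in each group of at least 50 cells of a cluster and library, in UMIs per 1000000 on log axes, with exact 95% Poisson intervals and open triangles for the upper limit at 0 UMIs. For Lin28a, each control ES-like cluster lies above each CX-5461 ES-like cluster, and these clusters are each of 1 library apart from 1 control cell. Igf2bp1 and Mycn are lowest in fibroblast-like cells and in CX-5461 cluster 9.

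The genes whose pattern was most like Lin28a were sought over 10 groups of a cluster and a library, among 12358 genes. They were Gm6087 (Pearson r = 0.976), Ccdc85c (0.972) and Polr2i, a subunit of RNA polymerase II (0.967). Polr2i went from 241.9 to 116.2 CPM in ES-like cells, and Ccdc85c from 5.21 to 1.01. The least like were Ephx1 (−0.987), Ptpn14 (−0.987) and Ahnak2 (−0.989), and Ahnak2 went from 1.14 to 36.1 CPM. These r values are descriptions over groups that share 2 libraries, and are set mainly by the gap between libraries and between ES-like cells and feeders. Between the 7 genes, r with Lin28a was 0.81 for Igf2bp1, 0.75 for Trim71, 0.47 for Mycn, 0.42 for Lin28b, 0.23 for Myc and −0.16 for Hmga2.

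Linked gene lists were read in ES-like cells by the same call, where 21.3% of all genes were higher and 17.2% lower and the median is 0. Of 16 genes of let-7 maturation and turnover, all were tested, 4 were lower and 0 higher, with a median of −0.25. The lowest was Khsrp, a splicing and let-7 processing factor, at 20.5 CPM in control and 6.56 in CX-5461 (relative log2 −2.02), followed by Drosha, the nuclear microRNA processing nuclease, at 38.3 and 26.2 CPM (−0.92). The highest were Dis3l2, the exonuclease that degrades uridylated let-7 precursors, at 4.36 and 8.33 CPM (0.56), and Prkra, a Dicer partner, at 5.83 and 11.004 CPM (0.54), neither of which was called.

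Of 31 other known let-7 target genes, 26 were tested, 10 were lower and 2 higher, with a median of −0.44. Hmga1, the relative of Hmga2, stood at 483.7 CPM in control and 171.8 in CX-5461 (−1.87). Cdk6, a cell cycle kinase, stood at 30.9 and 16.3 CPM (−1.29). The 2 higher genes were Fas, a death receptor and p53 target, with 2 UMIs in control and 812 in CX-5461 (0.0484 and 12.8 CPM, a ratio of 263.6 with an interval of 72.7 to 2181), and Irs2, an insulin receptor substrate, at 0.726 and 3.49 CPM. By this list, 23 of 31 genes held a CTACCTC site, or 74.2%, beside 9.02% of all protein-coding genes. The median 3′ UTR was 2160 bases in the list and 961 over all. The list was drawn up of known let-7 targets, so its share of sites is a description only.

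Ratios were also read by the number of sites in the 3′ UTR. Without the 7 genes, the median relative log2 ratio was 0.0027 for the 9269 tested genes with no site, −0.0026 for the 903 with 1 site and −0.035 for the 132 with 2 or more. The shares called lower were 15.8%, 14.3% and 15.2%. The median 3′ UTR lengths of these groups were 983, 2100 and 3809 bases, and the part of length was not tested.

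Of 22 MYC target genes of growth, 12 were lower and 2 higher, with a median of −0.60. Mthfd2, a mitochondrial folate enzyme, stood at 75.1 CPM in control and 29.5 in CX-5461 (−1.72), and Slc7a5, an amino acid transporter, at 19.6 and 11.2 CPM (−1.18). Cad, the first enzyme of pyrimidine synthesis, was higher at 24.6 and 74.9 CPM (1.23), as was Pa2g4, a growth-regulated nucleolar protein, at 161.7 and 315.4 CPM (0.59). Of 17 MYC partners and regulators, 16 were tested, with 2 higher and 1 lower. Mxd4, a repressor that competes with MYC for MAX, stood at 0.654 and 7.29 CPM (3.11), Fbxw7, which marks MYC for degradation, at 18.4 and 40.8 CPM (0.78), and Ruvbl1, an ATPase cofactor of MYC, at 118.0 and 96.0 CPM (−0.67). Huwe1, another ubiquitin ligase of MYC family proteins, stood at 47.1 and 40.7 CPM (−0.58) and was not called.

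In the insulin-like growth factor and mTOR list, 16 of 21 genes were tested, 4 were higher and 0 lower, with a median of 0.07. Besides Irs2 (1.89), the highest was Tsc2, a brake on mTOR signalling, at 9.59 CPM in control and 35.3 in CX-5461 (1.51). The lowest were Rictor, a subunit of mTOR complex 2, at 12.0 and 11.6 CPM (−0.43), and Akt2, a kinase of the pathway, at 27.5 and 27.5 CPM (−0.37), neither called.

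Of 7 close relatives of the genes, 4 were lower and 1 higher, with a median of −0.59. Besides Hmga1, Igf2bp3, the relative of Igf2bp1, was lower at 60.1 CPM in control and 39.3 in CX-5461 (−0.99). Trim3, a relative of Trim71, was higher at 1.57 and 4.18 CPM (1.04), and Mycl, of the MYC family, stood at 2.74 and 4.13 CPM (0.22) and was not called. All lists were written with earlier results of these data known, and the counts are descriptions of 2 libraries.

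**Figure D4:**
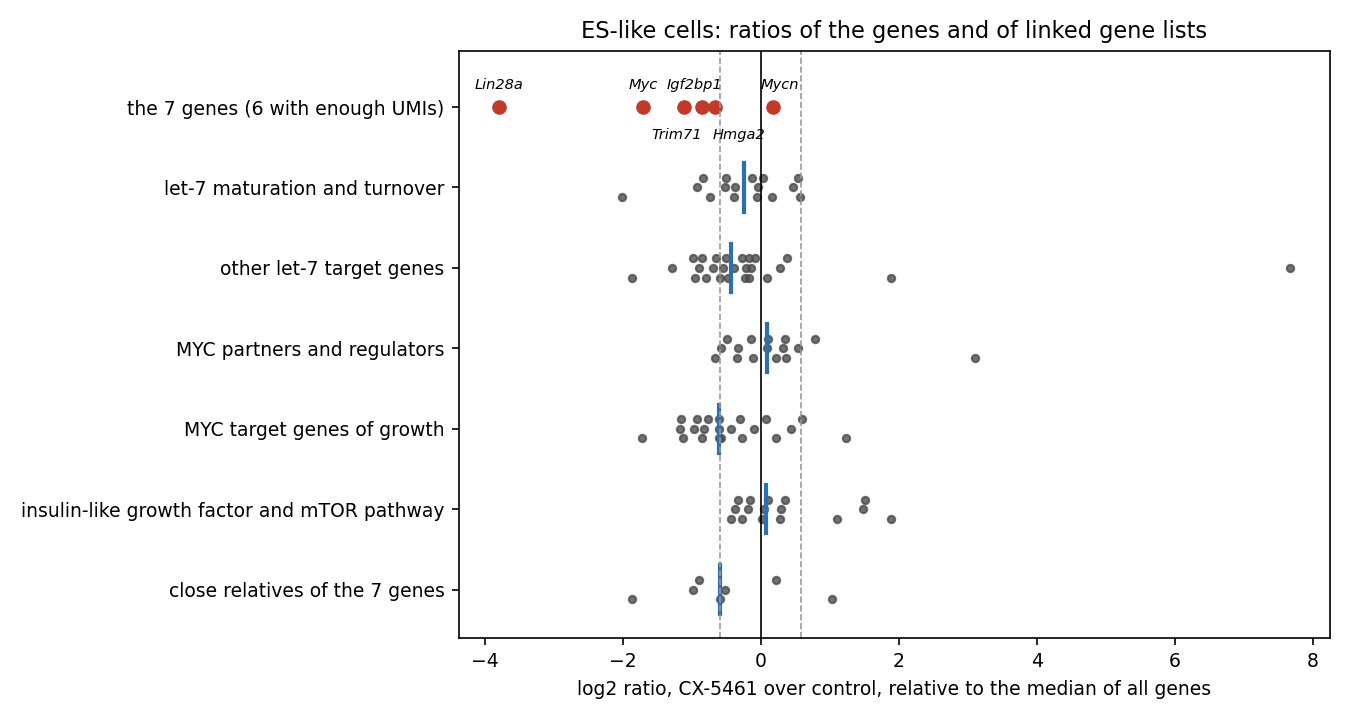
Log2 ratio of CX-5461 to control in ES-like cells, relative to the median of all genes, for 6 of the 7 genes (red, named) and for each tested gene of 6 linked lists (grey); blue bars are list medians and dashed lines the 1.5-fold call. Lin28a lies farthest to the left at −3.80, and Fas is the grey point at 7.67.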

How the data were processed

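Gene levels were read from 2 tables of counts, 1 per condition. The deposited values are UMI counts, not normalized by the authors, made from 10x Genomics Single Cell 3′ v2 libraries with a published droplet pipeline; the submitters' processing notes name mm10 and Seurat 2.3.4. The study's methods name Bowtie as the aligner of that pipeline, which was replaced only for counts of repeats; its version is not given in the sources used here. The study's limits on cells and genes had not been applied to the tables, so barcodes under 500 UMIs or over 0.2 mitochondrial UMIs were removed here. The study's figures show fewer cells in each condition than were kept here by these limits, so the 2 sets of cells are not the same. The 225 CX-5461 barcodes and 71 control barcodes left out were mostly over the mitochondrial limit.

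Clusters were made from all kept cells at once in scanpy 1.11.5 (10000 UMIs per cell, log scale, 2000 variable genes without the 7 genes, 16 components, 15 neighbours, Leiden 0.5). A cluster was named from at least 3 markers of a class among its 50 leading genes, or ES-like from an ES marker level of at least 0.5 of that of all cells. A cluster whose median UMIs were less than 1 part in 3 of those of its own library, with no marker of its class among its 10 leading genes, stayed unnamed; this left out the shallow control cluster, at 0.184 of its library and an ES marker level of 1.10, and kept CX-5461 cluster 8, at 0.420. No doublet caller was applied; leaving out cells over 2 times the median UMIs of their class is among the alternatives. Levels are UMIs summed over cells of a class per 1000000 of the class. Intervals are exact at 95% (Poisson, conditional binomial, Clopper-Pearson). With 1 library per condition no test was run, and edgeR 4.0.16 gave only a TMM factor. The libraries held 49610287 and 69841836 UMIs in all.

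Symbols came from GENCODE vM21, which matched 54079 of 54146 identifiers. The 7 genes and all lists were chosen with earlier results of these data known. Named genes were the 7, the 2 highest and 2 lowest tested genes of each list, and the 3 genes most and least like Lin28a. Overlapping genes and marker examples were named too. Krt15, Rgs14, Nanog, Col1a2, Lyz2, Cd68, Dppa5a, Zfp42 and Sox2 were chosen after their values were seen. The computation of ratios, intervals and calls was run on simulated counts with set fold changes. These counts held counting error only, so they say nothing of differences between cultures or cells.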

Additional observations from a re-analysis of the deposited data

How the results depend on the processing

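Lin28a kept its sign under 12 alternatives, with relative log2 ratios from −3.83 to −3.43; 11 lay within its counting interval, and on class totals without the median it was −3.43. Trim71, Igf2bp1, Hmga2 and Myc stayed below 0 in each of their 12 alternatives, and Mycn was below 0 in 1 of 12, from −0.02 to 0.55. The number of genes called lower was 3 on class totals and 3 with a 2-fold call, in place of 5, and 4 at equal depth, where Hmga2 was no longer called (−0.42). The share of ES-like cells with a Lin28a UMI depended on the depth: 3.57% and 0.135% at 1500 UMIs, 11.7% and 1.04% at 6000 UMIs, and 28.1% and 2.68% as deposited, in control and CX-5461.

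With a 2-fold call, the lower genes were 1 for let-7 maturation, 2 for other let-7 targets, 0 for MYC partners (1 higher), 4 for MYC growth targets (1 higher) and 1 for close relatives. On class totals, higher and lower genes were 3 and 1 for let-7 maturation, 4 and 4 for other let-7 targets, 7 and 0 for MYC partners, 4 and 5 for MYC growth targets, and 2 and 2 for close relatives, and 7 were higher in the insulin-like growth factor and mTOR list. With genes of at least 50 UMIs, 2 MYC partners were lower, 1 MYC growth target was higher and 1 gene of the insulin-like growth factor and mTOR list was lower. The cause of these changes is the threshold, the centring or the number of genes tested, as named.

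No paired analysis was possible because the barcodes carry no link to the labelled samples; for the same reason, leaving out each replicate in turn was not run. Counts of Lin28b, Myc and the members in feeders are few, and depth limits them. Differences between cultures were not measured.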
